A study of Mus musculus with 16 samples.

Results

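The effect of vitamin B12 in diabetic kidneys was measured by bulk RNA sequencing in 8 of the 16 libraries of the series, 4 diabetic mice given B12 (D_B12 1 to 4) and 4 diabetic mice left without it (D_C 1 to 4), as the labels name them. Each library came from the kidney of a separate mouse. All mice of the series were Elmo1H/H, homozygous for an allele that raises expression of Elmo1, and diabetes came from the Ins2Akita mutation, which the diabetic mice carried as Elmo1H/HIns2Akita/+. B12 was given in the drinking water at 10 mg per kg body weight per day from 8 weeks of age. The labels give 16 weeks of treatment and the methods a shorter one, so the duration is uncertain. The other libraries were 4 non-diabetic Elmo1H/HIns2+/+ controls (ND_C) and 4 such mice given B12 (ND_B12), and they entered the same fit to share 1 estimate of the spread. Of 57186 genes in the table, 25408 had at least 100 counts summed over all 16 libraries and were tested.

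Vitamin B12 is the cofactor of methionine synthase, which joins the folate cycle to the remethylation of homocysteine, and of methylmalonyl-CoA mutase in the mitochondrion. The kidney takes up B12 through megalin and cubilin in the proximal tubule, the segment that reabsorbs most filtered glucose and phosphate. The loop of Henle and the collecting duct lie downstream of it, concentrate the urine and set the final balance of salt, water and acid.

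Total counts ran from 65271308 to 91771136 per library, and every pair of libraries correlated at 0.972 to 0.985 on a log2 scale. Elmo1 itself had 286 to 417 normalized counts in the diabetic libraries, with overlapping groups (log2 fold change -0.06 ± 0.14 SE, adjusted p = 0.904). Proximal markers were abundant, with Slc34a1 at 336801 to 391540 normalized counts. On an axis built from 34 genes that separated the B12-treated diabetic from the B12-treated non-diabetic kidneys, the D_B12 kidneys sat at 0.84 to 1.16, which the construction places there. The library labelled D_C 1 sat at 0.35, while D_C 2, D_C 3 and D_C 4 sat at 0.85, 0.72 and 0.61 and the 4 ND_C kidneys at 0.07 to 0.28. On the first principal component of all genes (15.7% of the variance), D_C 1 lay with the non-diabetic kidneys at -0.125, against 0.253 to 0.420 for the other D_C kidneys, and the library labelled ND_B12 4 lay with the diabetic ones at 0.189. Results are therefore given with and without D_C 1.

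**Figure D1:**
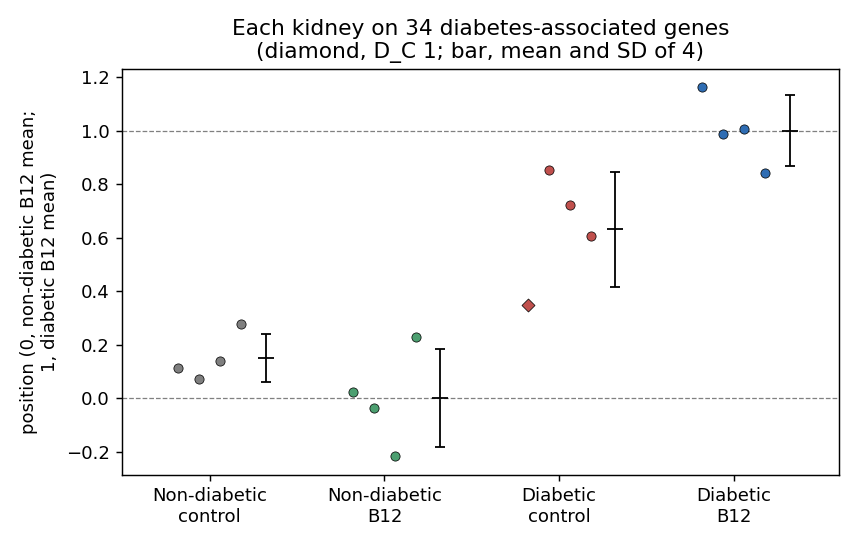
Position of each of the 16 kidneys on the 34 genes that differed between B12-treated diabetic and B12-treated non-diabetic kidneys, with 0 set at the ND_B12 mean and 1 at the D_B12 mean. The library labelled D_C 1 (diamond) sits at 0.35, below the other D_C kidneys at 0.61 to 0.85 and above the ND_C kidneys at 0.07 to 0.28.

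The group names also carry a doubt that bears on the directions below. Normalized counts were set against group means published with the study, to learn which libraries each published group holds. Over 181 genes and all 1820 sets of 4 libraries, the means under the name diabetic control were met by D_B12 1, 2, 3 and 4 (median absolute log2 difference 0.0002, against 0.297 for D_C 1 to 4), and those under diabetic with B12 by D_C 2, 3 and 4 with ND_B12 4 (0.0002, against 0.304 for D_B12 1 to 4). GEO's labels were followed here. Under the other naming D_B12 1 to 4 would be the untreated kidneys, and D_C 1 would be replaced by ND_B12 4. Under that naming, fold changes given below without D_C 1 would change sign when read as an effect of B12. Values with ND_B12 4 in the place of D_C 1 were not computed. The dates inside the library labels were shared by no D_C and D_B12 kidney, so date and treatment cannot be told apart.

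With all 8 diabetic libraries, 0 of 25408 genes passed an adjusted p of 0.05 in edgeR's quasi-likelihood test, and the lowest adjusted p was 0.0703, shared by 16 genes. At an unadjusted p below 0.05 there were 3468 genes (13.6% of those tested), 1636 higher with B12 (6.44%) and 1832 lower (7.21%), and 1419 of them (5.58%) also had a log2 difference of 0.5 or more in size. Normalized counts did not overlap between the groups for 1672 genes (6.58%), 3.4% higher and 3.18% lower. DESeq2 called 670 genes at an adjusted p of 0.05. Without the library labelled D_C 1, edgeR called 67 genes (0.264%), 31 higher and 36 lower, with 16.0% of genes at an unadjusted p below 0.05 (9.2% higher and 6.77% lower). Leaving out D_C 2 gave 65 calls and leaving out D_B12 1 gave 41, whereas leaving out any other diabetic library gave 0. Genes are therefore described below as higher or lower with their values, and the adjusted p without D_C 1 is given where it passed. The shares of 6.44% higher and 7.21% lower (9.2% and 6.77% without D_C 1) are the background for every list count below.

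Among markers of the nephron's parts, those of the loop of Henle, the collecting duct and type A intercalated cells were lower in the B12-treated diabetic kidneys, and those of the proximal and distal convoluted tubules lay close to the median of all genes. All 7 thin limb markers were below 0, at a median of -0.76 on the log2 scale, and 5 of them were lower at p below 0.05. Of 10 thick ascending limb markers 6 were lower and 0 higher (median -0.37), of 10 principal cell markers 6 were lower and 0 higher (median -0.50), and of 6 type A intercalated cell markers 5 were lower and 0 higher (median -0.34). The median over all 25408 genes was 0.00, and 7.21% of them were lower at that threshold. The 9 markers of the first proximal segment had a median of 0.11 with 0 past the threshold, the 7 of the second segment 0.04 with 1 higher, the 8 of the third -0.15 with 1 lower, and the 7 of the distal convoluted tubule 0.10 with 0. Without D_C 1 the medians of the lower lists were -0.86, -0.36, -0.51 and -0.45 in the same order. Markers without overlap between groups numbered 0, 3, 1 and 0 in that order, where 3.18% of all genes were lower without overlap. In summed counts, D_B12 1 lay above D_C 1 for thin limbs (23463 and 17279), principal cells (47227 and 38422) and type A cells (21009 and 18847). Thick ascending limb sums did not overlap (202776 to 231606 in D_B12, 265245 to 353001 in D_C). Markers of a list come from the same kidneys and are not separate replicates. The type A list holds 2 genes that the study named on these samples, Slc4a1 and Aqp6, and reported as upregulated by B12. In a bulk sample, fewer cells of a type and less RNA per cell cannot be told apart.

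**Figure D2:**
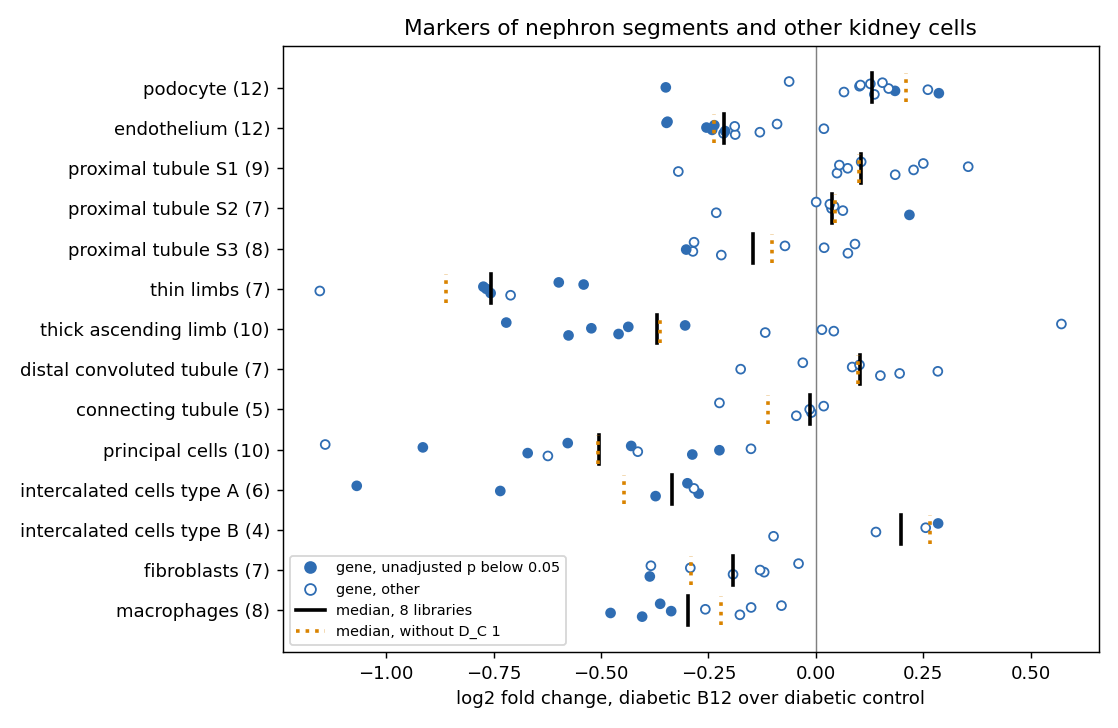
Log2 fold change (diabetic B12 over diabetic control) of each tested marker, by list, with the number of markers in parentheses; filled points had an unadjusted p below 0.05, black bars are medians over 8 libraries and dotted bars medians without D_C 1. Thin limbs, thick ascending limb, principal cells and type A intercalated cells have medians of -0.76, -0.37, -0.50 and -0.34, while the proximal S1 and distal convoluted tubule lists have 0.11 and 0.10.

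Slc4a11, a transporter of the bicarbonate family in the thin descending limb, had 730, 755, 760 and 1064 normalized counts in D_C 1 to 4 and 732, 459, 541 and 449 in D_B12 1 to 4. D_B12 1 lay among the untreated kidneys and the other treated ones lay below all of them (log2 fold change -0.60 ± 0.19 SE, adjusted p = 0.185). Cryab, a small heat shock protein of the medulla, had 8034, 9854, 8105 and 9647 against 9324, 5118, 5844 and 4170, again with D_B12 1 in the untreated range (-0.54 ± 0.22). Fst, which binds activin, had 230, 895, 726 and 960 against 375, 306, 635 and 330, and here D_C 1 was the lowest of the 8 diabetic kidneys (-0.77 ± 0.34, and -1.04 ± 0.24 without D_C 1). In non-diabetic kidneys Slc4a11 ranged from 351 to 634 and Fst from 198 to 394.

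In the thick ascending limb, Slc12a1, the sodium-potassium-chloride cotransporter blocked by loop diuretics, had 68089, 85284, 86150 and 127238 normalized counts in D_C 1 to 4 and 58980, 63423, 63934 and 59408 in D_B12 1 to 4. The groups did not overlap, and the log2 fold change was -0.58 ± 0.15 (adjusted p = 0.123, and 0.052 without D_C 1). Without D_C 4, the highest kidney, it was -0.36 (adjusted p = 0.289). Umod, the most abundant urinary protein uromodulin, had 178723, 138466, 159014 and 177320 in D_C and 107494, 112969, 116094 and 138458 in D_B12. The highest treated kidney lay just under the lowest untreated one, at a log2 fold change of -0.46 ± 0.13 (adjusted p = 0.149). Umod ranged from 128489 to 208794 in non-diabetic kidneys, so here 3 of the 4 treated diabetic kidneys were below the non-diabetic range as well. Cldn19, a tight junction protein for calcium and magnesium, and Ppp1r1a, a phosphatase inhibitor, had log2 fold changes of -0.52 ± 0.16 and -0.30 ± 0.07. Other markers of the same limb lay near 0, with Kcnj1 at -0.12, Cldn10 at 0.01 and Cldn16 at 0.04.

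Of the principal cell genes, Fxyd4, a regulator of the sodium pump, had 1310, 1611, 1003 and 1404 normalized counts in D_C and 1074, 650, 562 and 534 in D_B12. Only D_B12 1 reached into the untreated range, and the log2 fold change was -0.91 ± 0.23 (adjusted p = 0.11). Hsd11b2, which inactivates glucocorticoids and so protects the mineralocorticoid receptor, had 8224, 7028, 10231 and 7976 against 5718, 6509, 6006 and 6593, with no overlap and a log2 fold change of -0.43 ± 0.11 (adjusted p = 0.114). Scnn1b, a subunit of the epithelial sodium channel, had a log2 fold change of -0.22 ± 0.08 and Apela, a peptide ligand of the apelin receptor, -0.58 ± 0.21. Aqp2, the vasopressin-regulated water channel, was at -0.62 ± 0.38 and did not pass (adjusted p = 0.506). It ranged from 9356 to 27158 in D_C and from 6943 to 20632 in D_B12.

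Markers of the types of intercalated cell lay on different sides of 0. Slc26a7, an anion exchanger of acid-secreting type A cells, had 257, 706, 369 and 735 normalized counts in D_C and 260, 222, 292 and 208 in D_B12 (log2 fold change -1.07 ± 0.33, adjusted p = 0.177). D_C 1 lay with the treated kidneys, and the other D_C kidneys lay above all of them. Adgrf5 and Kit of the same list had log2 fold changes of -0.30 ± 0.12 and -0.27 ± 0.11. The 4 markers of type B cells, which secrete bicarbonate, had a median of 0.20, with Slc4a9 at 0.28 ± 0.11 (0.17 without D_B12 4). The 7 markers shared by both types had a median of -0.13, with 1 above 0 and 6 below. At p below 0.05, 1 was higher and 1 lower. The 1 above 0 was Foxi1, the transcription factor of both types. It had 1083, 1071, 1138 and 993 in D_C and 1641, 1303, 1290 and 1190 in D_B12, without overlap (log2 fold change 0.34 ± 0.15).

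Outside the tubule, 6 of 12 endothelial markers were lower and 0 higher, with a median of -0.21, where 7.21% of all genes were lower and 6.44% higher. Robo4, an endothelial guidance receptor, had 1752, 1918, 1787 and 1760 normalized counts in D_C and 1633, 1400, 1422 and 1217 in D_B12, with no overlap. Its log2 fold change was -0.35 ± 0.09, and those of Tek, Egfl7 and Emcn were -0.24, -0.25 and -0.24. Of 8 macrophage markers 4 were lower and 0 higher (median -0.30), but 1 was lower without D_C 1 (median -0.22). The complement gene C1qc had 632, 580, 520 and 461 in D_C and 335, 417, 459 and 361 in D_B12, the closest kidneys of the groups nearly meeting. Pdgfra, a receptor of interstitial fibroblasts, was lower at -0.39 ± 0.11, with 1 of 7 fibroblast markers past the threshold (median -0.19, and -0.29 without D_C 1). Podocyte markers had a median of 0.13, with 2 higher and 1 lower of 12, and without D_C 1 a median of 0.21 with 5 higher and 0 lower. Synpo, an actin-binding protein of foot processes, was at 0.18 ± 0.07.

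Other tissues were present unevenly. Summed over 7 adipocyte markers, the D_C kidneys held 3205 to 13727 normalized counts and the D_B12 kidneys 2918 to 20549. Adipoq was at 0 in D_C 4, D_B12 3 and D_B12 4 and at 1108 in D_B12 2. The 8 urothelial markers summed to 2071 to 4195 in D_C and 134 to 3036 in D_B12. The 7 B and plasma cell markers summed to 327 to 994 in D_C and 370 to 459 in D_B12, with D_C 1 the highest. Without D_C 1 the median of the adipocyte list went from 0.22 to 2.19, that of the urothelial list from -0.61 to -0.22 and that of the B and plasma cell list from -0.61 to -0.12. None of these 3 lists had a member past the threshold, and their part in the results was not tested. Summed T cell markers ran from 331 to 501 in D_C and 328 to 455 in D_B12, neutrophil markers from 12 to 136 and 18 to 27, and globin and erythroid transcripts from 20208 to 22810 and 19005 to 26246. The single tested markers of skeletal muscle and adrenal gland had log2 fold changes of 0.30 and -0.17, while those of mesangium and smooth muscle had medians of -0.06 and 0.03 with 0 past the threshold.

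The 67 genes past an adjusted p of 0.05 without D_C 1 split by kind of gene. Of the 42 protein-coding genes among them 35 were lower and 7 higher with B12, while all 15 TEC loci and all 8 lncRNA genes were higher. All 67 had the same direction with the full 8 libraries, where 46 of them also had no overlap between groups (6.58% of all tested genes had none). The 67 were chosen from libraries that are among these 8, so neither count is independent support. Leaving out D_C 1 made the untreated group 3 kidneys, and the calls rest on that choice. Tspan8, a tetraspanin of epithelial membranes (ENSMUSG00000034127.16, GRCm39 chromosome 10, 115652737 to 115685798), had 2345, 2352, 2739 and 2795 normalized counts in D_C and 1545, 1735, 1619 and 1635 in D_B12. The groups stood clearly apart, at a log2 fold change of -0.65 ± 0.09 (adjusted p = 0.0703, and 0.0226 without D_C 1). Epcam, an epithelial adhesion molecule, had 4128, 5691, 4178 and 5954 against 3446, 2771, 3099 and 2712, a log2 fold change of -0.73 ± 0.14 (0.0742, and 0.0342 without D_C 1).

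Edn3, the peptide endothelin-3, had 356, 509, 442 and 561 normalized counts in D_C and 299, 280, 256 and 319 in D_B12, without overlap (log2 fold change -0.69 ± 0.13, adjusted p = 0.0226 without D_C 1). Its non-diabetic range was 272 to 346. Hk1, the hexokinase that opens glycolysis, had 8032, 9888, 9465 and 11012 in D_C and 7104, 7090, 6991 and 6516 in D_B12 (-0.47 ± 0.09, 0.0226 without D_C 1). Pkm, the pyruvate kinase that closes it, was at -0.34 ± 0.13 with all libraries and -0.47 ± 0.08 without D_C 1 (adjusted p = 0.0343). The glucose transporter Slc2a1 was at -0.43 ± 0.10 (adjusted p = 0.0978, and 0.0581 without D_C 1). The membrane protease St14, the channel-like Tmc4 and the phospholipid enzyme Cds1 had log2 fold changes of -0.43, -0.46 and -0.25. In contrast, the transcription factor Myrf and the lysoplasmalogen-degrading enzyme Tmem86b were higher, at 0.44 ± 0.10 and 0.54 ± 0.12.

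**Figure D3:**
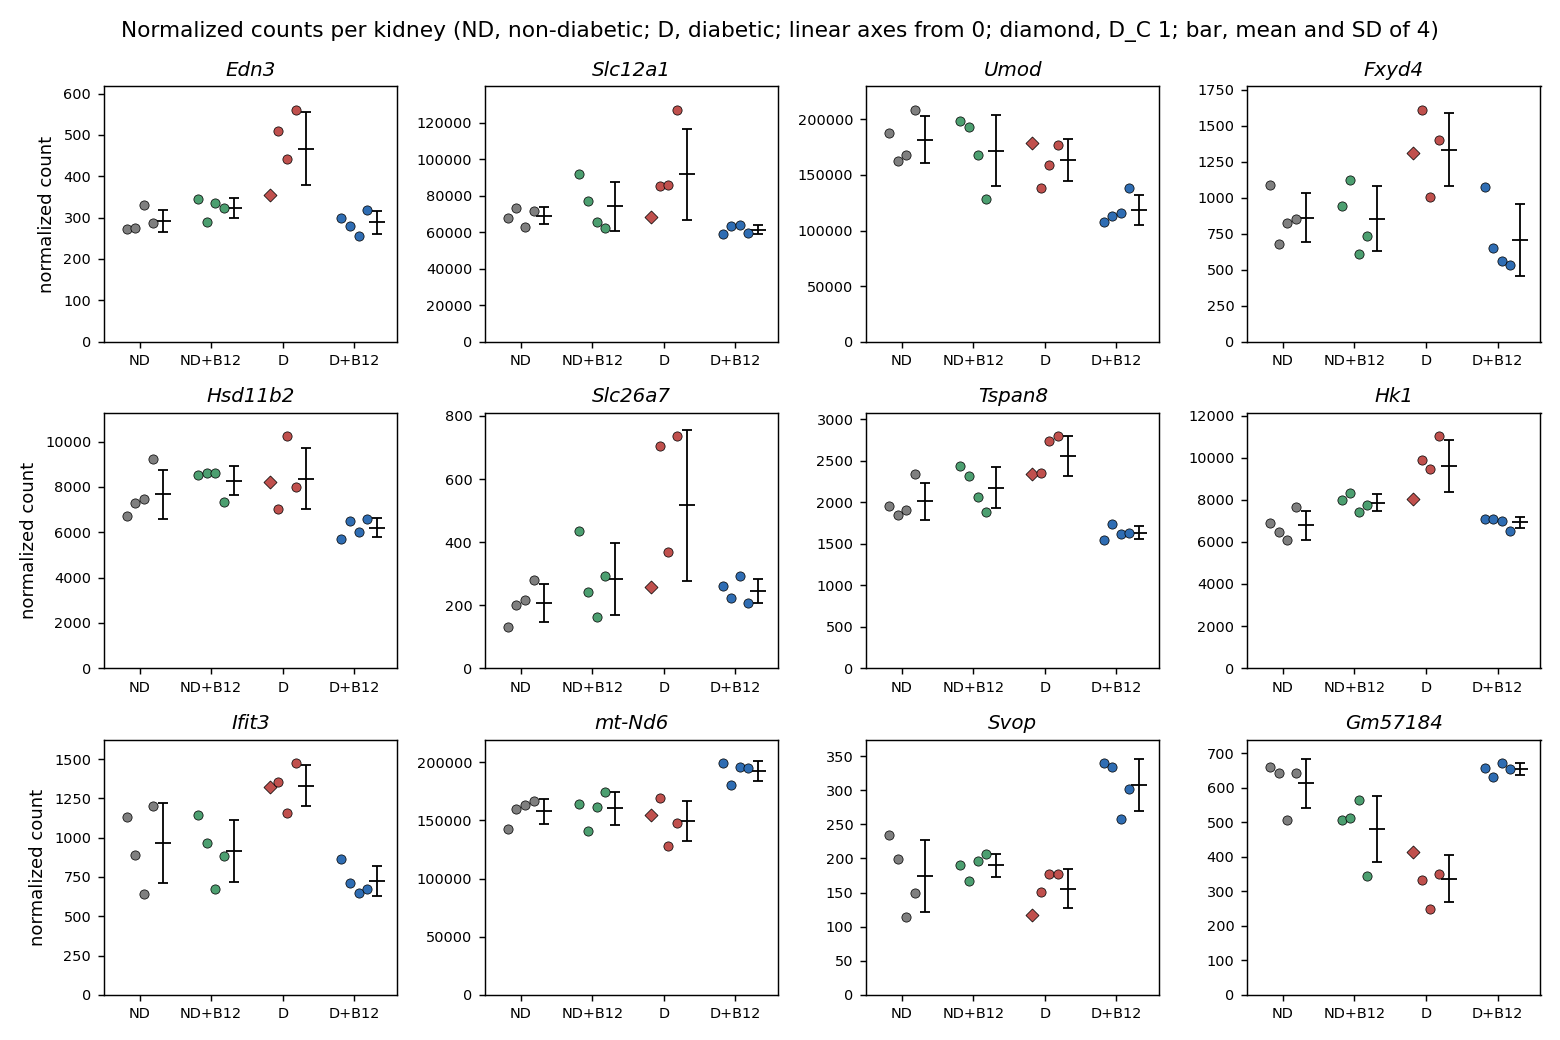
Normalized counts of 12 genes in each of the 16 kidneys, with the mean and SD of 4 beside each group; the library labelled D_C 1 is the diamond. For Slc26a7 the other 3 D_C kidneys stand above all D_B12 kidneys, and for Tspan8, Slc12a1, Edn3, Hk1 and Ifit3 all 4 do, while mt-Nd6, Svop and Gm57184 are higher in all D_B12 than in all D_C kidneys.

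Genes that take up or process B12 mostly lay close to the median of all genes. Of 14 genes for B12 uptake and processing, 2 were higher and 0 lower, and the median was -0.03, where 6.44% of all genes were higher. The uptake receptors Cubn, Lrp2 and Amn, the transport protein Tcn2 and its receptor Cd320 had log2 fold changes between -0.17 and 0.05, none past the threshold. Mtr, the B12-dependent methionine synthase, had 3000, 2905, 3142 and 3376 normalized counts in D_C and 3870, 3966, 3376 and 3917 in D_B12. The lowest treated and the highest untreated kidney met at 3376, and the log2 fold change was 0.29 ± 0.09 (adjusted p = 0.182). Mmachc, which removes the upper ligand of cobalamin, was at 0.19 ± 0.07. Mmut, the B12-dependent mutase of mitochondria, was at -0.05.

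Of 18 one-carbon genes 1 was higher and 3 were lower, with a median of -0.08, where 6.44% of all genes were higher and 7.21% lower. Ahcy, which hydrolyses S-adenosylhomocysteine, had 15997, 15306, 17957 and 16407 in D_C and 13495, 14472, 14068 and 14342 in D_B12, with no overlap (-0.22 ± 0.06, adjusted p = 0.138). Cbs, which diverts homocysteine to cystathionine, and Mthfd1l, the mitochondrial formate-producing enzyme, were at -0.31 ± 0.13 and -0.69 ± 0.26.

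Interferon-stimulated genes encode antiviral proteins, and many carry in their promoter a repeated GAAA element that binds interferon regulatory factors. Of 34 tested, 9 were lower, 0 higher and 30 below 0, with a median of -0.23 (-0.18 without D_C 1, 8 lower). Over all genes 7.21% were lower (6.77% without D_C 1). On these samples the study reported the interferon-stimulated genes Bst1, Ifit1bl2 and Ifih1 as upregulated by B12 in diabetic kidneys. The doubt about the group names, given above, bears on this difference. The letters GAAA-NN-GAAA (N, any base; either strand) occur in the promoters of 12 of the 22 list genes with an entry in RefSeq (250 bases before to 50 after the start), and in 3.99% of 27025 gene symbols. The stretches around the matches in the members with the smallest p and an entry are shown here, GRCm38.p6, 5′ to 3′ on the gene's strand, with matches on either strand in capitals; overlapping matches run together.
Ifit3 (chr19:34583348-34583441, plus strand): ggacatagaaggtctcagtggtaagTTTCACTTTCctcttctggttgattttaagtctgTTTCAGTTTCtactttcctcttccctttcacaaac
Ifit3b (chr19:34607744-34607837, plus strand): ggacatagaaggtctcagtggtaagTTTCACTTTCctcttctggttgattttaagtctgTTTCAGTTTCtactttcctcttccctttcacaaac
Isg15 (chr4:156200850-156200921, minus strand): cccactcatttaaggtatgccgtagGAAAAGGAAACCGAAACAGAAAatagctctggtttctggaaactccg
The stretches of Ifit3 and Ifit3b are the same letters, and counts of these near-identical neighbours may be shared between them.

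Ifit3, which binds other IFIT proteins on foreign RNA, had 1325, 1357, 1159 and 1475 normalized counts in D_C and 863, 715, 648 and 672 in D_B12. The groups did not overlap and D_C 1 lay with the other untreated kidneys (log2 fold change -0.87 ± 0.18, adjusted p = 0.0783). Ifit3b had 633, 763, 728 and 732 against 403, 438, 400 and 341 (-0.85 ± 0.17, adjusted p = 0.0783). Isg15, a ubiquitin-like modifier with 3 overlapping matches, had 131, 143, 115 and 124 against 86.3, 73.5, 62.5 and 82.6 (-0.75 ± 0.19, adjusted p = 0.109). For Ifit3 the non-diabetic kidneys ran from 643 to 1203, a range that held all D_B12 kidneys but only the lowest D_C kidney (1159). Mx1, a GTPase against viruses, had 43.2, 20.7, 18.7 and 36.9 in D_C and 14.0, 13.6, 12.9 and 14.6 in D_B12 (-1.11 ± 0.34, adjusted p = 0.167). Some list members lay near or above 0, with Rsad2 at -0.04 and Ifi27l2a at 0.73.

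Of 35 transcripts of the mitochondrial genome tested, 14 were higher and 0 lower, while 30 lay above 0 and 5 below (median 0.23), against 6.44% higher over all genes, and 10 had no overlap (3.4% over all genes). mt-Nd6, the complex I subunit read from the other strand, had 154670, 169155, 127668 and 147745 normalized counts in D_C and 199413, 180312, 195906 and 194668 in D_B12 (log2 fold change 0.36 ± 0.09, adjusted p = 0.103). mt-Nd3 and mt-Cytb, subunits of complexes I and III, were at 0.42 ± 0.10 and 0.29 ± 0.09. The 78 nuclear genes of oxidative phosphorylation had a median of 0.01, with 2 higher and 1 lower. The class of other pseudogenes took 2.70% to 3.51% of counts in D_C and 3.76% to 3.98% in D_B12 (exact permutation test, two-sided p = 0.0286, the smallest possible with 4 against 4; 0.257 adjusted over 9 classes). Its top members by counts, Gm28437, Atp6-ps and Gm28661, are nuclear copies of mitochondrial sequence that can share reads with it.

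Protein-coding genes were more often lower and noncoding genes more often higher. Of 15878 protein-coding genes 4.72% were higher and 10.1% lower at p below 0.05 (median -0.03). Of 3997 lncRNA genes 9.26% were higher and 3.10% lower (median 0.09; without D_C 1, 14.9% and 1.85%, median 0.19). Of 1682 TEC loci, transcribed regions that the annotation holds pending experimental proof, 18.3% were higher and 1.19% lower (median 0.27). Without D_C 1 the TEC figures were 30.0% and 0.892% (median 0.41). Of 2597 processed pseudogenes 5.35% were higher and 1.85% lower (median 0.06). The lncRNA genes with 1 exon had a median of 0.04 and those with 2 or more exons 0.10.

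**Figure D4:**
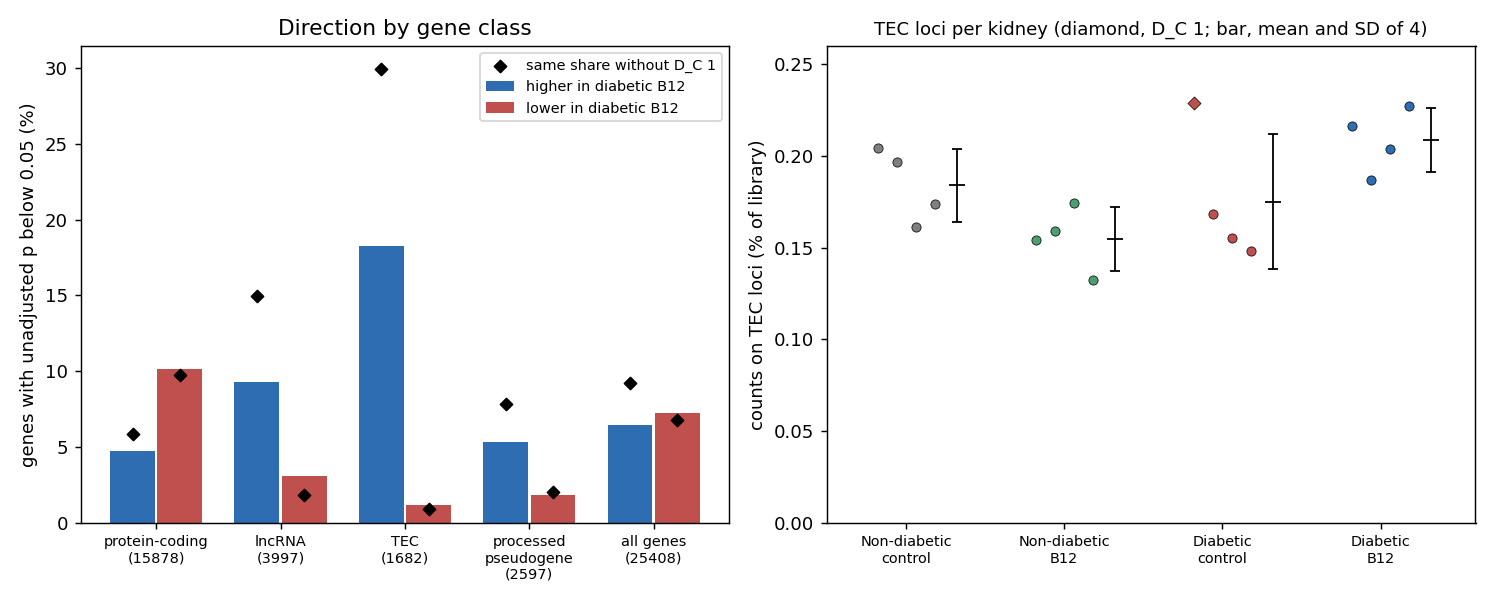
Left, the percentage of tested genes of each class with an unadjusted p below 0.05, higher or lower in the B12-treated diabetic kidneys, with diamonds for the same shares without D_C 1. Right, the percentage of each library's counts on TEC loci; D_C 1 (0.229%) lies with the D_B12 kidneys (0.187% to 0.227%), and D_C 2 to 4 lie at 0.148% to 0.168%.

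The place of the TEC loci in the genome went with their direction. Of the 1682 loci, 1021 (60.7%) lay within an intron of a tested protein-coding gene on the same strand, and the median of these was 0.33, with 221 higher and 2 lower. Their 654 host genes had a median of -0.03, and 847 of the 1021 loci were above their own host. The 390 loci not wholly inside a tested coding gene on either strand had a median of 0.03, with 29 higher and 17 lower. The 222 loci on the opposite strand of a coding gene had a median of 0.28, and the 49 that overlapped an exon 0.24. Counts on TEC loci made up 0.229%, 0.168%, 0.155% and 0.148% of D_C 1 to 4 and 0.216%, 0.187%, 0.204% and 0.227% of D_B12 1 to 4. The groups overlapped through D_C 1 (exact permutation test, two-sided p = 0.171; 0.0286 without D_C 1, 0.411 adjusted over 9 classes with it). Retained-intron transcripts took 3.37% to 4.05% of transcript counts in D_C and 3.75% to 4.02% in D_B12 (exact two-sided p = 0.4).

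Gm57184, a lncRNA gene (ENSMUSG00000121277.1, chromosome 1, 72275572 to 72311939), had 413, 333, 250 and 349 normalized counts in D_C and 657, 631, 671 and 653 in D_B12. The treated kidneys lay close together and above every untreated one (log2 fold change 0.96 ± 0.15, adjusted p = 0.0703, and 0.0226 without D_C 1). Gm37101, a TEC locus, had 114, 80.8, 79.1 and 71.3 against 211, 168, 190 and 142 (1.04 ± 0.18, and 0.0226 without D_C 1). The noncoding genes with the largest differences were Gm34648, Gm31774, Gm16311, Gm12451 and 1810017P11Rik on the higher side, at 1.35 to 1.43, and D030045P18Rik, Gm45819, Gm45051, Gm13807 and Gm43966 on the lower side, at -1.91 to -0.88. The functions of these loci are not known well enough to state.

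Among other protein-coding genes without overlap, Ano3, a member of the anoctamin family of channels and scramblases, had 485, 1074, 816 and 661 normalized counts in D_C and 2304, 1612, 1869 and 1685 in D_B12 (log2 fold change 1.30 ± 0.27, adjusted p = 0.0783). Its non-diabetic range was 465 to 1275, below every treated diabetic kidney. Svop, a transporter-like protein of vesicles, had 118, 150, 177 and 178 against 340, 334, 257 and 301 (0.99 ± 0.19), and Dtx4, a ubiquitin ligase of Notch signalling, was at 0.81 ± 0.16. Aqp8, a water channel, had 15.2, 108, 83.5 and 73.9 in D_C and 188, 143, 109 and 152 in D_B12, so that its largest untreated value lay just below the smallest treated one (1.08 ± 0.44). Folr2, a folate receptor of macrophages, was higher at 0.90 ± 0.22, while the macrophage markers above were lower. Palm3, Ncapg, Msantd1, Doc2g, Rslcan18 and Nfil3 were higher at 0.80 to 1.06, and Mro was 2.82-fold higher.

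On the lower side, Epor, the erythropoietin receptor, had 267, 364, 285 and 314 normalized counts in D_C and 207, 113, 147 and 130 in D_B12 (log2 fold change -1.04 ± 0.27, adjusted p = 0.123). Car9, a carbonic anhydrase induced by low oxygen, had 807, 343, 445 and 425 against 259, 276, 227 and 236 (-1.02 ± 0.21, adjusted p = 0.0783). D_C 1 held the highest Car9 value, and without it the log2 fold change was -0.68 ± 0.14. Fcgbp, a mucin-like secreted protein, had 1275, 258, 392 and 319 in D_C and 252, 30.8, 55.2 and 36.4 in D_B12, so that D_C 1 and D_B12 1 were each far above their group (-2.58 ± 1.01, adjusted p = 0.27). Kcnt1, a sodium-activated potassium channel, was at -0.91 ± 0.20. Cntn1, Chst9, Gdf7, Fam3d, Dtx1, Lrriq1, Trim46 and Dnaaf4 were lower at -1.20 to -0.95, with Fam3d at -0.53 without D_C 1.

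Metabolic lists showed small differences. Of 19 fatty acid oxidation and ketogenesis genes 4 were lower, 0 higher and 17 below 0 (median -0.10), and without D_C 1 the median was -0.16 with 6 lower. Ppara, the nuclear receptor that drives them, had 8392, 6975, 7617 and 6641 normalized counts in D_C and 5218, 5967, 6249 and 5993 in D_B12, without overlap (log2 fold change -0.34 ± 0.09, adjusted p = 0.138). Its targets Cpt1a, the carnitine carrier enzyme, and Pdk4 were at -0.22 ± 0.08 and -0.52 ± 0.23. Cholesterol genes had a median of -0.06 with 1 higher and 2 lower of 22, and genes of glucose transport and gluconeogenesis -0.02 with 2 of 14 lower. Without D_C 1 these medians were -0.12 and -0.11, with 3 and 1 lower. Solute carriers as a family had 16 higher and 45 lower of 329 (6 of them named by the study), and cytochrome P450 genes 1 and 4 of 67, where 6.44% of all genes were higher and 7.21% lower. Ribosomal protein genes had a median of 0.01 with 2 higher and 5 lower of 86.

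Injury markers lay on both sides of 0. Lcn2, a secreted marker of tubular damage, had 166, 579, 307 and 343 normalized counts in D_C and 345, 89.8, 101 and 93.5 in D_B12, with D_C 1 and D_B12 1 each out of line with their group (log2 fold change -1.14 ± 0.44, and -1.86 without D_B12 1). The keratins Krt8 and Krt18 were at -0.24 ± 0.09 and -0.79 ± 0.35. Cdkn1a, an inhibitor of the cell cycle, had 281, 1353, 865 and 850 against 1791, 1946, 2294 and 1337 (1.14 ± 0.44), and Havcr1 was at -0.13 and did not pass. Over the 14 genes the median was -0.12, with 1 higher and 4 lower, and without D_C 1 it was -0.26 with 1 higher and 2 lower. Over all genes 6.44% were higher and 7.21% lower, and 9.2% and 6.77% without D_C 1. The cell cycle list had a median of 0.29 with 2 of 20 higher, Mki67 at 0.51 ± 0.21 and Ccna2 at 0.57 ± 0.22, and without D_C 1 its median was 0.08. Lists for endoplasmic reticulum stress, Nrf2 targets, heat shock and osmolyte handling had medians of 0.04, 0.00, 0.13 and -0.18, with 2, 2, 0 and 0 genes higher and 0, 0, 1 and 0 lower.

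Of 18 immediate early genes 4 were lower and 1 higher (median -0.16; without D_C 1, 2 and 0, median -0.10). Over all genes 7.21% were lower and 6.44% higher, and 6.77% and 9.2% without D_C 1. Ier2, a nuclear protein induced by growth factors, had 558, 716, 764 and 607 normalized counts in D_C and 399, 346, 482 and 409 in D_B12 (log2 fold change -0.69 ± 0.14, adjusted p = 0.0783, and 0.0485 without D_C 1). Junb and Zfp36 were at -0.63 ± 0.16 and -0.47 ± 0.20, and Ier3 at 0.42 ± 0.18 (0.67 without D_C 2). Replication-dependent histones had 3 higher and 14 lower of 62, with 4 of the list named by the study and the linker histone H1f2 at 9993, 9252, 15793 and 15614 in D_C and 6638, 7180, 9604 and 7556 in D_B12 (-0.71 ± 0.17). H1f2 overlapped between D_C 2 and D_B12 3. The study reported the reverse direction, with H1f2 upregulated by B12 in diabetic kidneys, and the doubt about the group names bears on this. Matrix genes had 1 higher and 5 lower of 23, with the laminins Lamc1 and Lamb2 at -0.25 and -0.27 (Lamb2 at -0.17 without D_C 3) and Col4a3 at 0.25. The list holds 4 genes that the study named on these samples.

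The circadian lists hold genes that the study chose on the same samples, 10 of 16 repressors and outputs and 3 of 6 activators, so their counts are not independent evidence. Of the former 13 were lower and 1 higher (median -0.49), and of the latter 3 were higher and 2 lower. Wee1, a cell cycle kinase under clock control, had 1977, 2025, 1695 and 1473 normalized counts in D_C and 1003, 1428, 1281 and 1056 in D_B12 (log2 fold change -0.59 ± 0.15). Clock, a core activator, was at 0.39 ± 0.12 and Nr1d2, a repressor, at -0.39 ± 0.11. The study reported the reverse on these samples, with Clock suppressed and Wee1 upregulated by B12 in diabetic kidneys. The doubt about the group names, given above, bears on this difference. The time of day of each kidney within the collection window was not given in the sources used here.

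For the question whether B12 acted differently in diabetic kidneys, the interaction of B12 and diabetes had 0 genes past an adjusted p of 0.05 in edgeR, with a lowest value of 0.0521 and 4093 genes (16.1%) at an unadjusted p below 0.05. DESeq2 gave 943, and edgeR gave 265 without D_C 1 and 144 without D_C 2. Genes at the lowest adjusted p included Gm57184 (interaction 1.31 on the log2 scale), Gm38319 (1.63), Otud1, a deubiquitinase (-0.70), and Car9 (-1.73). Car9 had 395 to 541 normalized counts in ND_C and 582 to 826 in ND_B12, so B12-treated kidneys were the higher group without diabetes and the lower group with it. Gm38319 had 329 to 589 in ND_C and 252 to 322 in ND_B12, and 206 to 302 and 428 to 574 in D_C and D_B12.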

How the data were processed

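Kidney RNA of 16 mice was sequenced from total RNA libraries, 4 per group. Per the submitters' processing notes and the study's methods, the authors made reads with bcl2fastq 2.20.0, aligned them with STAR to GRCm39 and estimated expected counts per gene and transcript with StringTie, which were deposited as whole numbers in a table of the whole series. Genes were matched by identifier to GENCODE vM39 for class and position (56630 of 57186). Genes with at least 100 counts summed over 16 libraries were normalized by TMM and tested two-sided with edgeR 4.0.16 (R 4.3.3) quasi-likelihood, 1 mean per group, and Benjamini-Hochberg adjustment over 25408 genes. DESeq2 1.42.0 was an alternative. Normalized counts are counts divided by DESeq2's median-of-ratios size factors. The common biological coefficient of variation was 0.201, with 12 residual degrees of freedom.

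The marker and pathway lists, their members and the comparison were chosen with earlier results of these data known, and lists are described by counts at an unadjusted p below 0.05 and medians, without a set test. Named genes were, among genes with p below 0.05, no overlap and a mean of at least 50 normalized counts that the study does not name, the 12 protein-coding genes and 5 noncoding genes at each end of the log2 fold change, up to 4 members of smallest p per list, and up to 12 genes by p past the adjusted threshold without D_C 1. Other members given for contrast, and Epcam, Pkm, Slc2a1, St14, Otud1 and Gm38319, were picked after their values were seen. Shares of counts were compared with exact permutation tests. On simulated data for D_B12 against D_C (25078 genes), edgeR recovered 52 of 100 genes changed 1.5-fold and 82 of 100 changed 2-fold, with 6.29% false calls. For DESeq2 these were 58, 90 and 19.1%. Changed genes had a mean of at least 50 counts, and all other genes had the same expected level in every group. No effect of diabetes or date and no library out of line with its group was simulated, so these rates may not hold for the real libraries. Some genes are not reported here.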

Additional observations from a re-analysis of the deposited data

Results flagged for a closer look

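In 15 of 250 groups of 4 kidneys, 1 kidney stood apart from the other members of its group by a gap, as a part of the group's range, above Dixon's 95% critical value. Chance flags about 1 in 20 groups. In the library labelled D_C 1, the normalized counts of Fam3d (149), Fcgbp (1275) and Gm45819 (624) were far above those of the other D_C kidneys, and those of Cds1 (2599) and Dtx4 (1003) far below them. In D_B12 1, Apela (1357), Emcn (3395), Fcgbp (252), Lcn2 (345) and Mro (121) were far above the other D_B12 kidneys. In D_B12 2 Havcr1 was low at 70.7, in D_B12 3 Mtr was low at 3376 and Tmc4 high at 1724. In D_C 3 Lrp2 was high at 478938, and in D_C 4 Slc4a11 was high at 1064.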

How the results depend on the processing

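The count of genes past an adjusted p of 0.05 (0 in edgeR) was 670 with DESeq2, 1 with the diabetic libraries alone and 204 with the date in the labels as a covariate. It ran from 0 to 67 when single libraries were left out. The alternatives without D_C 1 and ND_B12 4 (214) and DESeq2 without D_C 1 (1097) were chosen after seeing the data. For the interaction (0 in edgeR) the counts were 943 with DESeq2, 753 with the date, 0 to 265 without single libraries, 83 without D_C 1 and ND_B12 4, and 1609 with DESeq2 without D_C 1. Genes with p below 0.05 that differed by 0.5 or more on the log2 scale numbered 1419, 2362 with the date, and 1158 to 1885 without single libraries. The median of protein-coding genes (-0.03) was -0.0034 with upper quartile scaling and -0.0031 with factors from coding genes alone. The difference in the share of counts on protein-coding genes (-0.17 percentage points) ran from -0.799 to 0.484 without single libraries and was positive without D_C 4, that of protein-coding transcripts (-0.391) from -0.934 to 0.395 likewise, and that of TEC loci (0.0335) from 0.0245 to 0.0514, past the threshold without D_C 1. The cause of these shifts was not tested.

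With the date as a covariate, Fam3d (0.028), Krt18 (0.035) and Slc4a9 (-0.0043) turned direction, while 161 of 164 named genes kept theirs, and 29 of 51 lists moved. All 164 kept direction under every other alternative. The 164 were named by their p values in these same libraries, many also for having no overlap. Little room was left for them to turn, so this is not independent support. In their deviations from the group mean, same-numbered D_C and D_B12 kidneys correlated at -0.111 to 0.0859, and other-numbered ones at -0.142 to 0.130. Of 4 D_C kidneys, 2 correlated best with their own number. The ranges overlapped, and with 4 kidneys a group they cannot decide whether replicate numbers pair the kidneys. The replicate block gave 0 genes for B12 in diabetic kidneys and 147 for the interaction.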
